A study of Mus musculus with 15 samples.

Results

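The 9 genes described here encode the proteins that load a synaptic vesicle with transmitter, keep it in reserve and fuse it with the presynaptic membrane. They were taken by name from the deposited gene table, with each Ensembl identifier counted once, and all 9 of the 9 names were found among 55487 identifiers. Each of them passed the filter on low counts that left 21780 genes for testing. They were measured in bulk RNA of frozen mouse forebrain, in 15 libraries from wild-type mice. The groups had 3 libraries each: untreated mice (NT), PLX1X (PLX 1x in the titles), PLX3X_CD0, PLX3X_CD30 and IR (IR-BMT in the titles). Titles call the PLX3X_CD0 libraries PLX 3x treated and the PLX3X_CD30 libraries only PLX treated. The labels spell out none of these abbreviations and give no dose, age or sex, and they do not say whether each library came from a different mouse. If libraries shared an animal, the p-values measure only the spread between libraries.

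At a nerve terminal, vesicles are filled by a transmitter transporter that runs on a proton gradient, clustered in a reserve pool by synapsins, and fused with the plasma membrane by the SNARE proteins when calcium binds synaptotagmin. Syp (synaptophysin) and Sv2a are abundant proteins of the vesicle membrane, and Sv2a is also the binding site of the antiseizure drug levetiracetam. Slc17a7 encodes VGLUT1, the vesicular glutamate transporter of most cortical and hippocampal excitatory neurons. Syt1 is the calcium sensor of fast release, and Syn1 and Syn2 are synapsins. Vamp2 on the vesicle and Stx1a and Snap25 on the plasma membrane form the SNARE complex that drives fusion. In bulk tissue, more RNA per neuron and a larger share of neuronal RNA in the sample cannot be told apart.

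The shallowest library, NT replicate 1, had 19249641 counts and the deepest 54801136, and the 9 genes together took 0.987% to 1.28% of each library. The levels below are CPM, counts per gene relative to the library total, scaled with TMM factors, which set libraries to a common level over most genes. Neuronal, astrocyte and myelin markers were present in every library: Rbfox3, a neuronal nuclear protein, lay between 292 and 372 CPM, Slc1a2, the astrocyte glutamate transporter, between 387 and 642 CPM, and Mbp, a myelin protein, between 2759 and 4952 CPM. Csf1r, the receptor that microglia need to survive, averaged 165 CPM in NT, 9.00 in PLX1X, 6.53 in PLX3X_CD0, 55.0 in PLX3X_CD30 and 47.5 in IR. NT replicate 1 stood apart in genes of thalamic neurons: Prkcd was at 86.1 CPM there and at 21.8 and 24.0 CPM in the other NT libraries, and Slc17a6, the vesicular glutamate transporter of the thalamus, was at 55.7 against 16.6 and 18.4 CPM. PLX3X_CD0 replicate 1 and IR replicate 1 stood apart in choroid plexus genes: Ttr, named after its values were seen, was at 1481 and 448 CPM there and between 2.83 and 22.0 CPM in the other libraries. Of 8 microglial markers 8, 8, 6 and 7 were called lower than in NT in PLX1X, PLX3X_CD0, PLX3X_CD30 and IR, and of 9 striatal markers 6 were called lower in IR. Some glial markers also fell: of 8 astrocyte markers 5, 6, 1 and 2 were called lower and none higher in the same order of groups. Their median log2 fold changes were -0.26, -0.29, -0.19 and -0.002. Of 8 oligodendrocyte markers 3, 4, 2 and 6 were called lower and none higher. Of 4 oligodendrocyte precursor markers 2, 2, 1 and 0 were called lower and 0, 1, 0 and 1 higher. Mitochondrial transcripts took 0.656% to 0.817% of counts in NT and 0.362% to 0.529% in the treated libraries. The part of dissection, of the change in glial markers and of RNA quality in the results below was not tested.

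Promoter sequences of the genes are shown for their motifs. RefSeq promoter windows on GRCm38.p6, 250 bases before to 50 after a start, were found for 7 of the 9 genes, in 9 windows. Snap25 and Vamp2 had no entry. Those of Syn1, Syp and Slc17a7 are printed because Syp and Syn1 followed the median pattern of the 9 genes most closely and Slc17a7 had the largest change in IR. Capitals mark every match, on either strand, to CAGCACC (the left part of the RE1 element bound by the neuronal repressor REST), TGACGT (a short cAMP response element) or GGGCGG (the GC box bound by Sp1), and matches may overlap. The Syn1 window is chrX:20920869-20921168 on the minus strand, the Syp window chrX:7638330-7638629 and the Slc17a7 window chr7:45163671-45163970, both on the plus strand.
Syn1: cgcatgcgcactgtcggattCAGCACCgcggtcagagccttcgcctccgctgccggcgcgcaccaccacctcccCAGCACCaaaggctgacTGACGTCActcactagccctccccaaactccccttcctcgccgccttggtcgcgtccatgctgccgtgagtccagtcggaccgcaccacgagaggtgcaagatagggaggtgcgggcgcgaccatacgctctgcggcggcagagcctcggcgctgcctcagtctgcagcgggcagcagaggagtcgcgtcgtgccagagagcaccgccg
Syp: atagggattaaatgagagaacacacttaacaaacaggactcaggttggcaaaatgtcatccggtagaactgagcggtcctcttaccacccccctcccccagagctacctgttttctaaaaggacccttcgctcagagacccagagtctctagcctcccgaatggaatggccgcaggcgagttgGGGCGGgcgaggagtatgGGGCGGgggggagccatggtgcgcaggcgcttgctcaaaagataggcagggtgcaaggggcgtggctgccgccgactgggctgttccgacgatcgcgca
Slc17a7: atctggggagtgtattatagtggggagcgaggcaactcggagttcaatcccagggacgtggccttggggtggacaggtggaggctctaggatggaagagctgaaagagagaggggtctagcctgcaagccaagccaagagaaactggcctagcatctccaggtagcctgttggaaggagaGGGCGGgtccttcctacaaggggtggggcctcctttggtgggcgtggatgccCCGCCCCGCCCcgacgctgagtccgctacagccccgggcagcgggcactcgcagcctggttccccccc
Syn1 held CAGCACC 2 times, first 230 bases before the start, and TGACGT 2 times, once on each strand of the same palindrome, and had no GC box. The first windows of Syp, Syt1, Syn2, Stx1a, Sv2a and Slc17a7 each held at least 1 GC box and neither of the other motifs. Syt1 and Syn2 each had a second window, and neither of these held any of the 3 motifs. Among 32851 promoter windows of 300 bases, 7.14% held CAGCACC, 7.51% held TGACGT and 35.7% held GGGCGG. A match is a string of letters and not a site shown to be bound.

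The genes differed in level. Levels were set per kilobase of merged exons, which join the exons of all annotated transcripts of a gene. On this scale CPM over all 15 libraries was 445 ± 39.3 (SD, n = 15) for Snap25, 387 ± 22.2 for Vamp2, 333 ± 67.1 for Slc17a7 and 301 ± 36.0 for Syn1. Then came Syt1 at 210 ± 25.1 CPM per kilobase, Syp at 169 ± 20.2, Sv2a at 154 ± 19.2, Stx1a at 141 ± 30.4 and Syn2 at 86.8 ± 10.4. In this order the gap between neighbours exceeded the sum of their SDs only between Syn1 and Syt1 and between Stx1a and Syn2. The SDs include differences between groups. Merged exons took 8338 bases for Syt1, whose longest transcript has 4820, but 3299 for Syn1, whose longest has 3261. The order and gaps are therefore given for merged exons only.

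**Figure D1:**
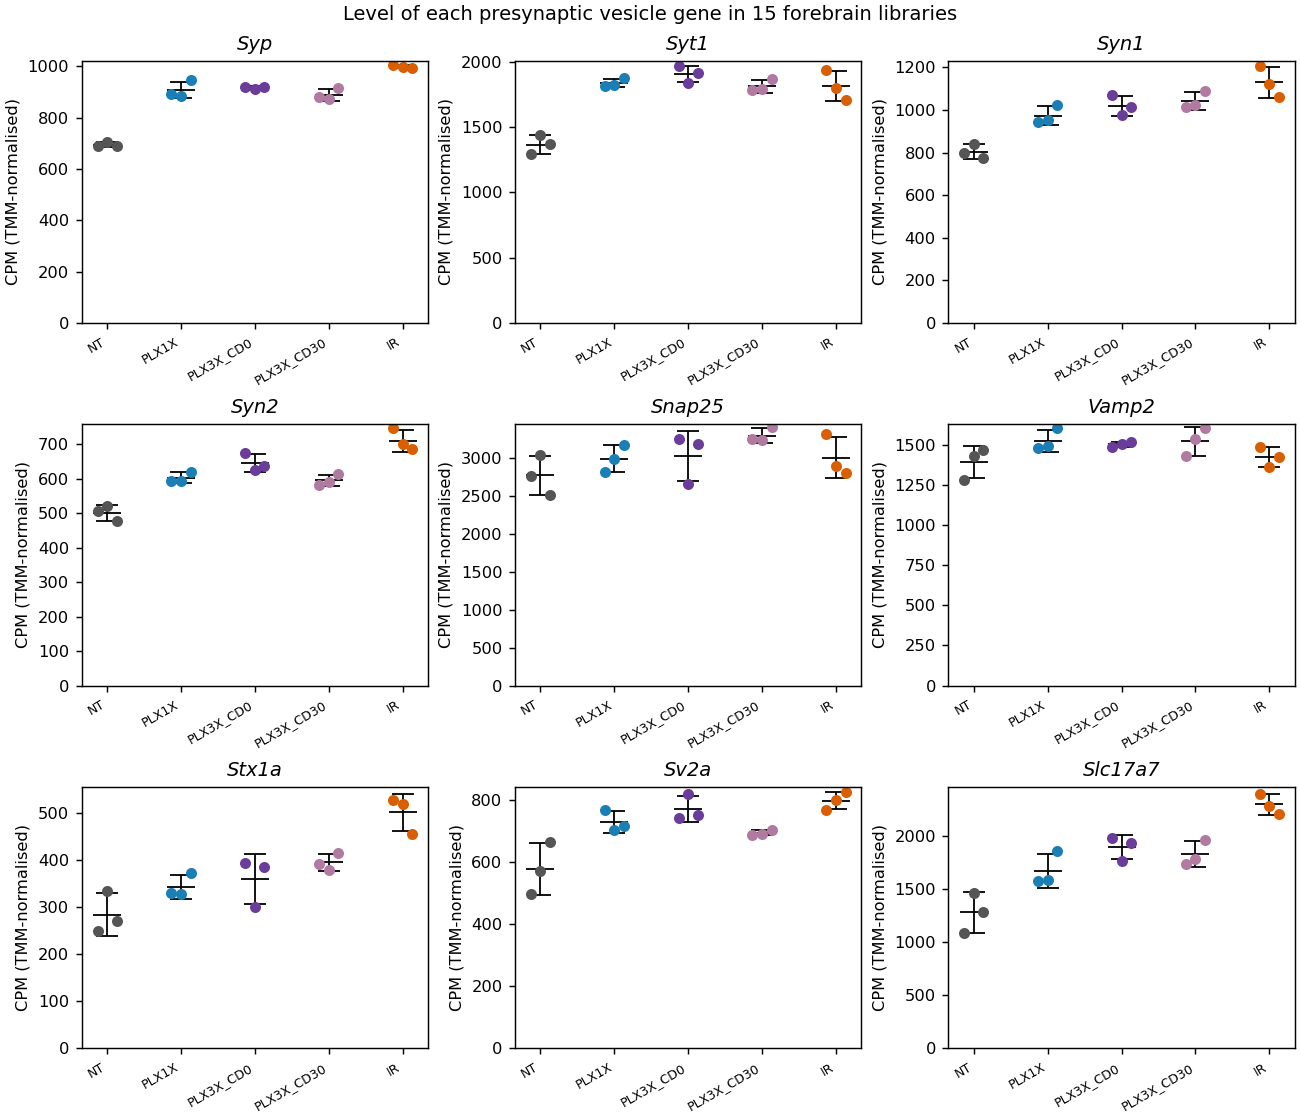
TMM-normalised CPM (vertical axes, from 0) of the 9 genes by group (horizontal axes), with a point per library and a bar at the mean ± SD of 3 libraries. For Syp, Syt1, Syn1, Syn2, Sv2a and Slc17a7 all 12 treated libraries lie above the 3 NT libraries, while for Snap25 and Vamp2 the ranges overlap.

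Positions are given on mm10 from GENCODE M21. Against NT, vesicle genes rose in all 4 treated groups and none of the 9 fell under TMM, while scaling to neuronal genes called Vamp2 lower in IR. The count was 6 in PLX1X, 7 in PLX3X_CD0, 7 in PLX3X_CD30 and 7 in IR. Syp, Syt1, Syn1, Syn2, Sv2a and Slc17a7 were called in each group, Stx1a in all groups but PLX1X, and Snap25 and Vamp2 in none. Among all 21780 genes tested, 9.97% were called higher in PLX1X, 12.2% in PLX3X_CD0, 4.74% in PLX3X_CD30 and 15.1% in IR, and 8.12%, 9.53%, 1.84% and 15.4% were called lower. The 9 genes are highly expressed, and among the 2178 genes with the highest CPM the shares called higher were 38.2%, 43.1%, 24.5% and 52%. The median log2 fold change of the 9 genes was 0.28 in PLX1X, 0.37 in PLX3X_CD0, 0.36 in PLX3X_CD30 and 0.49 in IR. The same median over those 2178 genes was 0.13, 0.15, 0.12 and 0.19, and over all genes it lay between -0.05 and -0.02. For the mean of the 4 treated groups against NT, 7 of the 9 were higher, where 13.2% of all genes and 50% of the 2178 were. Libraries of the treated group all lay above NT for 7, 7, 8 and 7 of the 9 genes, as they did for 15.9%, 17%, 13.3% and 18.7% of all genes. That share was not taken for the 2178 genes with the highest CPM. The 4 comparisons share the NT libraries. The 9 genes were chosen with earlier results of these data known, so these counts beside the shares are a description. Without NT replicate 1 the counts called were 6, 6, 5 and 7 in the same order of groups, and without PLX3X_CD30 replicate 3 the count in that group was 4. Without the libraries high in choroid plexus genes, PLX3X_CD0 replicate 1 or IR replicate 1, the counts in their groups were 6 and 7. Fits to only the libraries compared lost the calls of Slc17a7 and Sv2a in PLX1X, Stx1a in PLX3X_CD0, and Sv2a and Syn2 in PLX3X_CD30. All tests were edgeR quasi-likelihood F-tests over all 15 libraries, two-sided, with Benjamini-Hochberg adjustment over all genes and a threshold of 0.05.

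Both vesicle membrane genes rose in each group, and Syp varied little between libraries of a group. Syp (chrX:7638471-7653256) was at 689, 707 and 688 CPM in the 3 NT libraries and at 894, 886 and 946 CPM in PLX1X. It was at 922, 912 and 920 CPM in PLX3X_CD0 and at 879, 872 and 915 CPM in PLX3X_CD30. The IR libraries held 1005, 998 and 992 CPM. Every treated library lay above every NT library, and the IR libraries lay above all others. Its log2 fold change from NT, ± SE, was 0.39 ± 0.05 in PLX1X, 0.40 ± 0.05 in PLX3X_CD0, 0.36 ± 0.05 in PLX3X_CD30 and 0.52 ± 0.05 in IR, with adjusted p from 0.000294 in PLX3X_CD30 down to 4.10e-07 in IR (edgeR). NT libraries held 498, 570 and 663 CPM of Sv2a (chr3:96181151-96195521), and PLX1X libraries 768, 702 and 716 CPM. The level was 741, 820 and 751 CPM in PLX3X_CD0, 688, 690 and 703 CPM in PLX3X_CD30 and 769, 799 and 826 CPM in IR. NT replicate 3 was the NT library nearest to the treated ones, and no treated library overlapped NT. Sv2a rose by 0.34 ± 0.08 (log2, adjusted p = 0.00455 by edgeR) in PLX1X, 0.42 ± 0.08 in PLX3X_CD0 and 0.47 ± 0.08 in IR. In PLX3X_CD30 it rose by 0.27 ± 0.08 with an adjusted p of 0.0432 (edgeR), a call that 8 of 19 other settings did not make. The PLX1X call of Sv2a was not made in 2 of 19 other settings.

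Slc17a7, the glutamate loader, changed most in IR. For Slc17a7 the NT libraries lay at 1089, 1467 and 1291 CPM, those of PLX1X at 1583, 1586 and 1860 and those of PLX3X_CD0 at 1982, 1768 and 1939. PLX3X_CD30 libraries lay at 1739, 1788 and 1969 CPM and IR libraries at 2406, 2289 and 2213 CPM. All treated libraries lay above all NT libraries, and the 3 IR libraries were the highest of the 15. The log2 fold change was 0.39 ± 0.09 in PLX1X (adjusted p = 0.00652, edgeR), 0.56 ± 0.09 in PLX3X_CD0, 0.51 ± 0.09 in PLX3X_CD30 and 0.84 ± 0.09 in IR (adjusted p = 4.18e-06, edgeR), a 1.79-fold level. Of 19 other settings, 1 did not make the PLX1X call. Slc17a7 lies at chr7:45163949-45176142 and contains the microRNA gene Mir7055. NT replicate 1, the library rich in thalamic transcripts, also had the lowest Slc17a7 of all. Of 8 other markers of cortical and hippocampal excitatory neurons, 0, 1, 1 and 3 were called higher than NT in PLX1X, PLX3X_CD0, PLX3X_CD30 and IR, and 0, 0, 0 and 2 lower. Named after their values were seen, those higher in IR were Tbr1, Cux2 and Fezf2 and those lower were Rorb and Prox1. Tbr1 and Cux2 were also called higher in IR than in PLX1X. Their part in the Slc17a7 change was not tested.

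The calcium sensor and both synapsins rose in each group. NT libraries held 1291, 1437 and 1367 CPM of Syt1 (chr10:108497650-109010982), and PLX1X libraries 1811, 1825 and 1872 CPM. The level was 1969, 1840 and 1910 CPM in PLX3X_CD0, 1780, 1789 and 1868 CPM in PLX3X_CD30 and 1935, 1797 and 1708 CPM in IR. All treated libraries lay above NT, and the IR libraries overlapped those of the PLX groups. Syt1 rose by 0.43 ± 0.06 in PLX1X, 0.48 ± 0.06 in PLX3X_CD0, 0.41 ± 0.06 in PLX3X_CD30 and 0.41 ± 0.06 in IR on the log2 scale, with the largest adjusted p, 0.0004 (edgeR), in PLX3X_CD30. Syn1 (chrX:20860511-20921004) was at 800, 842 and 773 CPM in the 3 NT libraries and at 944, 954 and 1024 CPM in PLX1X. It was at 1069, 975.1 and 1016 CPM in PLX3X_CD0 and at 1013, 1025 and 1088 CPM in PLX3X_CD30. The IR libraries held 1208, 1122 and 1062 CPM. Its groups did not overlap NT, and the log2 fold changes ran from 0.28 ± 0.06 in PLX1X to 0.49 ± 0.06 in IR. For Syn2 (chr6:115134902-115282006) the NT libraries lay at 506, 521 and 476 CPM, those of PLX1X at 593, 592 and 620 and those of PLX3X_CD0 at 675, 626 and 636. PLX3X_CD30 libraries lay at 582, 590 and 612 CPM and IR libraries at 745, 699 and 684 CPM. Again no treated library overlapped NT, and the change ran from 0.25 ± 0.05 in PLX3X_CD30 to 0.50 ± 0.05 in IR. The kit does not mark strand. The span of Syn1, introns included, overlaps Timp1 and Araf on the opposite strand. That of Syn2 overlaps Timp4, and that of Syp an antisense gene, Gm14703. On the same strand, Syn2 overlaps the protein-coding gene Gm17482 and Syt1 the protein-coding gene Gm5136. Some further overlapping genes are not named here. Overlap of exons was not examined, and reads from any shared exon could not be told apart.

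The 3 SNARE genes differed from one another. Stx1a (chr5:135023482-135051100) was at 248, 334 and 270 CPM in the 3 NT libraries and at 330, 328 and 372 CPM in PLX1X. It was at 393, 299 and 386 CPM in PLX3X_CD0 and at 392, 380 and 414 CPM in PLX3X_CD30. The IR libraries held 528, 520 and 455 CPM. IR was the highest group and did not overlap any other, while NT replicate 2 exceeded some PLX1X and PLX3X_CD0 libraries. Stx1a rose by 0.82 ± 0.11 (log2, adjusted p = 9.20e-05 by edgeR) in IR, 0.47 ± 0.11 in PLX3X_CD30 (adjusted p = 0.0232, edgeR) and 0.34 ± 0.11 in PLX3X_CD0 (adjusted p = 0.0458, edgeR). In PLX1X its change was 0.27 ± 0.11 and did not pass (adjusted p = 0.116, edgeR). Of 19 other settings, 10 lost the PLX3X_CD0 call and 6 the PLX3X_CD30 call.

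NT libraries held 2766, 3036 and 2518 CPM of Snap25 (chr2:136713453-136782428), and PLX1X libraries 2814, 2993 and 3178 CPM. The level was 3250, 2655 and 3188 CPM in PLX3X_CD0, 3247, 3233 and 3408 CPM in PLX3X_CD30 and 3319, 2895 and 2809 CPM in IR. NT and treated libraries overlapped in every group but PLX3X_CD30. Its log2 fold change was 0.11 ± 0.08 in PLX1X, 0.13 ± 0.08 in PLX3X_CD0, 0.25 ± 0.08 in PLX3X_CD30 (adjusted p = 0.0811, edgeR) and 0.12 ± 0.08 in IR (adjusted p = 0.313, edgeR). This result depends on a correction for transcript length and GC content. Snap25 has the lowest GC content of the 9 transcripts, 38.7% against 45.4% to 57.9% for the others. With the first form of that correction, its change was 0.29 ± 0.07 in PLX1X, 0.31 ± 0.07 in PLX3X_CD0, 0.37 ± 0.07 in PLX3X_CD30 and 0.60 ± 0.07 in IR, and it passed in all 4 (largest adjusted p = 0.00551, edgeR). Under 4 other forms, chosen after the results of the first were seen, it lay between 0.47 and 0.53 in IR and passed there each time, but it passed in PLX1X under only 1 of those forms.

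For Vamp2 (chr11:69088490-69092384) the NT libraries lay at 1277, 1430 and 1468 CPM, those of PLX1X at 1482, 1489 and 1605 and those of PLX3X_CD0 at 1488, 1502 and 1516. PLX3X_CD30 libraries lay at 1427, 1534 and 1607 CPM and IR libraries at 1483, 1362 and 1423 CPM. The NT libraries overlapped those of PLX3X_CD30 and IR and lay just below those of PLX1X and PLX3X_CD0. Its change was 0.13 ± 0.06 in PLX1X, 0.11 ± 0.06 in PLX3X_CD0, 0.13 ± 0.06 in PLX3X_CD30 and 0.03 ± 0.06 in IR, and none passed (smallest adjusted p = 0.145, edgeR). With the first form of the length and GC correction it was 0.26 ± 0.06 in PLX1X and 0.20 ± 0.06 in PLX3X_CD0, and both passed (adjusted p = 0.00463 and 0.0308, edgeR). That form also moved the median of all genes by 0.115 in PLX1X and 0.086 in PLX3X_CD0. Vamp2 passed in PLX1X under some of the 4 later forms and in PLX3X_CD0 under none. In IR the 4 later forms put it between -0.09 and -0.07. A p above the threshold does not show that Vamp2 or Snap25 were unaffected.

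**Figure D2:**
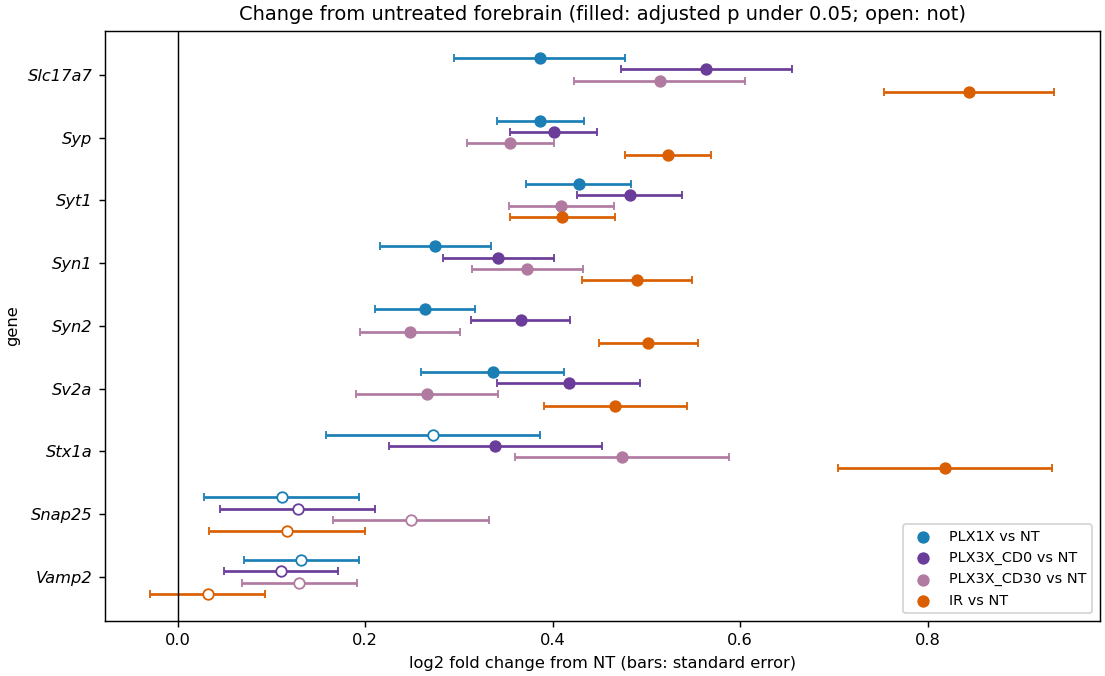
Log2 fold change from NT (horizontal axis) of each gene (vertical axis) in the 4 treated groups, with bars for the SE and filled points for an adjusted p under the threshold. The IR points of Slc17a7 (0.84) and Stx1a (0.82) lie farthest to the right, and the points of Snap25 and Vamp2 are open in all 4 groups.

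Among the treated groups, calls were made between IR and each PLX group. None of the 9 was called between PLX3X_CD0 and PLX1X, PLX3X_CD30 and PLX1X, or PLX3X_CD30 and PLX3X_CD0 in edgeR, where 2.46%, 1.21% and 3.8% of all genes were. At an unadjusted p under 0.05 the last pair had 1, Syn2 (-0.12 ± 0.05), and the others had 0. DESeq2 also called 0 in each pair. Among the 2178 genes with the highest CPM, 31.4%, 24.3% and 25.2% were called higher in IR than in PLX1X, PLX3X_CD0 and PLX3X_CD30. Against PLX1X, 5 of the 9 were higher in IR (13.9% of all genes were): Slc17a7 by 0.46 ± 0.09, Stx1a by 0.55 ± 0.11, Syn2 by 0.24 ± 0.05, Syn1 by 0.22 ± 0.06 and Syp by 0.14 ± 0.05 on the log2 scale. Against PLX3X_CD0, 2 were higher (10.1% of all genes), Stx1a by 0.48 ± 0.11 and Slc17a7 by 0.28 ± 0.09. Against PLX3X_CD30, 3 were higher (7.63% of all genes), Slc17a7 by 0.33 ± 0.09, Syn2 by 0.25 ± 0.05 and Syp by 0.17 ± 0.05. These counts rest on the scaling: set against 14 neuronal genes that are not synaptic, the numbers higher and lower were 2 and 2 against PLX1X, 1 and 3 against PLX3X_CD0, and 0 and 2 against PLX3X_CD30. The count against PLX1X was 3 without PLX1X replicate 1, PLX1X replicate 2 or IR replicate 1. Against PLX3X_CD0 it was 1 without its replicate 2 or 3 or any single IR library, and against PLX3X_CD30 it was 1 without its replicate 1 or 2 or IR replicate 2.

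The balance of the 9 genes within libraries was described by centring each gene's log2 level over the 15 libraries and taking off the mean of the 9 in each library. These values add to 0 in each library by construction, so that some are negative when others are positive. The 4 genes given here are those that differed most between NT and IR, and no test was made. Relative to the mean of the 9, Slc17a7 was at -0.18 ± 0.125 (SD, n = 3) in NT and 0.21 ± 0.005 in IR, and Stx1a at -0.10 ± 0.13 and 0.26 ± 0.08. Vamp2 was at 0.21 ± 0.07 in NT and -0.23 ± 0.05 in IR, and Snap25 at 0.17 ± 0.12 and -0.18 ± 0.07, although the level of neither was called lower in IR under TMM. All these values hold without the length and GC correction only. With it Snap25 rose in IR by 0.47 to 0.60, and a shift of 1 gene also moves the mean of the 9.

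With libraries scaled to 14 neuronal genes that are not synaptic, 5 of the 9 were called higher than NT in PLX1X, 7 in PLX3X_CD0, 6 in PLX3X_CD30 and 7 in IR. Of all 21780 genes this scaling called 1247, 2127, 390 and 1212 higher, and in IR it called 6400 lower. On it 7 of the 9 were higher in the mean of the treated groups, among them Slc17a7 by 0.49 ± 0.06 and Syp by 0.33 ± 0.04 on the log2 scale. This scaling moved the median of all genes in IR by -0.193 from its TMM value. On it, in IR, Vamp2 was lower (log2 fold change -0.16 ± 0.06, adjusted p = 0.0424 by edgeR), Snap25 was at -0.07 ± 0.06, and Syp was still higher by 0.33 ± 0.05. Of the 14 neuronal genes themselves, 4 were called higher and 2 lower than NT in PLX1X, 3 and 2 in PLX3X_CD0, 1 and 0 in PLX3X_CD30, and 8 and 0 in IR. Tubb3, the neuronal tubulin, rose by 0.66 ± 0.08 in IR, and Rbfox3 rose by 0.25 ± 0.06.

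**Figure D3:**
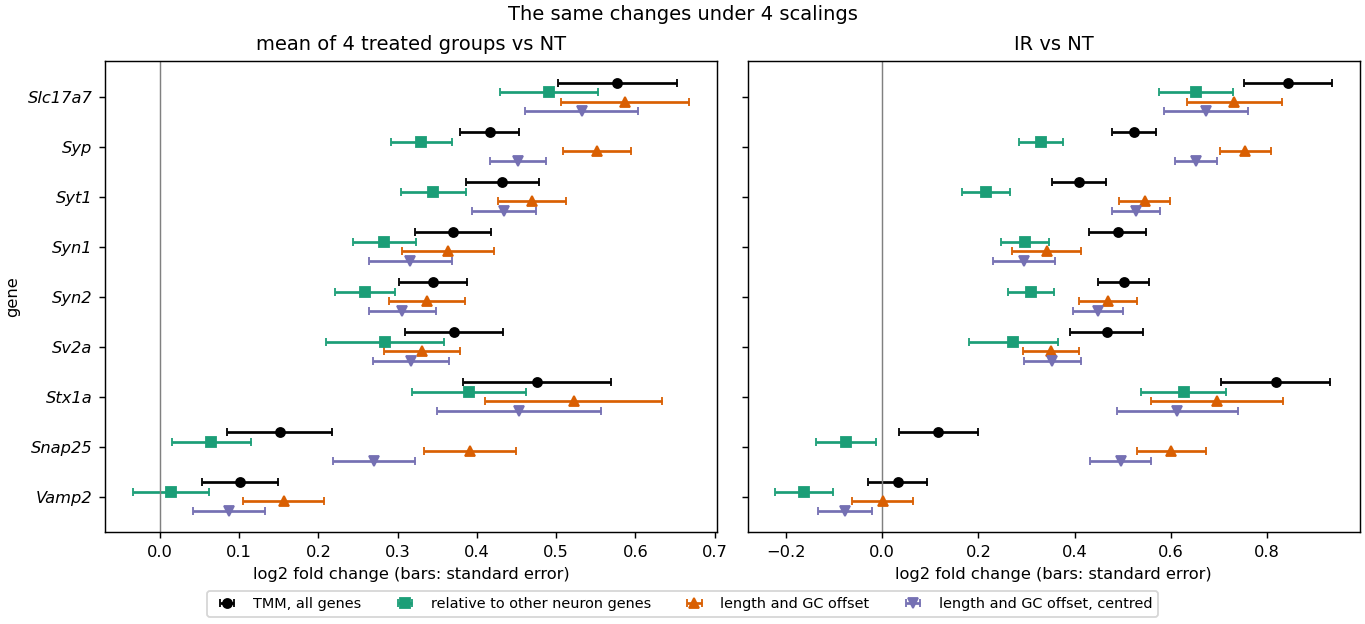
Log2 fold change from NT with SE bars for each gene, for the mean of the 4 treated groups (left) and IR (right), under TMM, scaling to neuronal genes that are not synaptic, and the length and GC offset without and with centring. Snap25 in IR moves from 0.12 under TMM to 0.60 with the offset and to -0.07 against neuronal genes.

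The rest of the presynaptic machinery was read from 6 lists with 67 genes. The lists were chosen with earlier results of these data known, so their counts beside the shares of all genes are a description. Over these lists 33, 40, 27 and 45 genes were called in either direction in PLX1X, PLX3X_CD0, PLX3X_CD30 and IR against NT. Without NT replicate 1 there were 34, 38, 28 and 45. Of all 21780 genes tested, 3939, 4732, 1432 and 6658 were called in either direction. Among the 2178 genes with the highest CPM the shares were 44.8%, 51%, 26.2% and 61.7%. The vesicle proton pump, which makes the gradient that drives transmitter loading, had 8 of 8 genes higher in PLX1X and in PLX3X_CD0, 6 in PLX3X_CD30 and 5 in IR, with none lower, and median log2 fold changes of 0.37, 0.31, 0.31 and 0.37. Atp6v0a1 rose by 0.50 ± 0.05 in IR and 0.49 ± 0.05 in PLX3X_CD0, Atp6v1b2 by 0.49 ± 0.05 in PLX1X and 0.40 ± 0.05 in PLX3X_CD30, Atp6v0c by 0.62 ± 0.07 in IR and Atp6ap2 by 0.43 ± 0.06 in PLX1X. The proteins of vesicle recycling, which retrieve membrane after fusion, had 9, 10, 8 and 9 of 13 higher and 1, 0, 0 and 2 lower in PLX1X, PLX3X_CD0, PLX3X_CD30 and IR, with medians of 0.27, 0.31, 0.20 and 0.38. Dnm1, the neuronal dynamin that cuts vesicles free, rose by 0.82 ± 0.06 in IR, Ap2a1, a clathrin adaptor subunit, by 0.71 ± 0.05 in IR, Synj1, a lipid phosphatase that uncoats vesicles, by 0.65 ± 0.06 in PLX3X_CD0, and Snap91, a clathrin assembly protein, by 0.41 ± 0.06 in PLX1X.

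Other vesicle membrane genes had 8, 9, 7 and 7 of 15 higher and none lower in the same order, with medians of 0.26, 0.25, 0.18 and 0.07. Syngr1 (synaptogyrin) rose in each group, by 0.42 ± 0.06 in PLX1X and 0.67 ± 0.06 in IR, and Sv2b, the relative of Sv2a, by 0.89 ± 0.10 in PLX3X_CD0. Rab3a, a small GTPase of the vesicle, rose by 0.46 ± 0.05 in IR and Syt5 by 0.38 ± 0.06 in PLX1X. SNAREs and their regulators had 6, 7, 6 and 8 of 12 higher and 0, 0, 0 and 2 lower, with medians of 0.17, 0.22, 0.20 and 0.35. The 2 lower in IR were Snapin and Doc2b, which fall outside the naming rule and were named after their values were seen. Doc2a, a calcium-binding protein of vesicle release, rose by 0.82 ± 0.09 in PLX1X and 1.22 ± 0.09 in IR, the largest rise among the genes of the 6 lists in IR. Nsf, which takes SNARE complexes apart, rose by 0.52 ± 0.05 in PLX1X and by 0.48 ± 0.05 in IR.

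The active zone is the scaffold where vesicles fuse. Of its 13 genes, 0, 4, 0 and 8 were higher and 1, 1, 0 and 1 lower in the same order of groups, with medians of -0.01, 0.08, 0.09 and 0.33. In edgeR, Cacna1a, a presynaptic calcium channel, fell in PLX1X by 0.25 ± 0.06 and was higher in IR by 0.33 ± 0.06. In IR Unc13a, a priming factor, rose by 0.69 ± 0.08 and Ppfia3 by 0.47 ± 0.07. Unc13b rose by 0.60 ± 0.11 in PLX3X_CD0. Of the 6 other transporters 0, 0, 0 and 1 were higher and 0, 1, 0 and 2 lower, with medians of 0.003, -0.34, -0.44 and -0.67. Slc18a2, which loads monoamines, was lower by 0.68 ± 0.18 in PLX3X_CD0 and by 1.24 ± 0.18 in IR, and Slc30a3, which loads zinc into glutamate vesicles, was higher by 0.89 ± 0.15 in IR. Slc32a1, which loads GABA, averaged 53.3 CPM in NT and 59.5 in IR, a log2 difference of 0.15 ± 0.20 that did not pass. Excitatory postsynaptic genes had 3, 5, 2 and 6 of 13 higher and 3, 3, 1 and 0 lower.

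**Figure D4:**
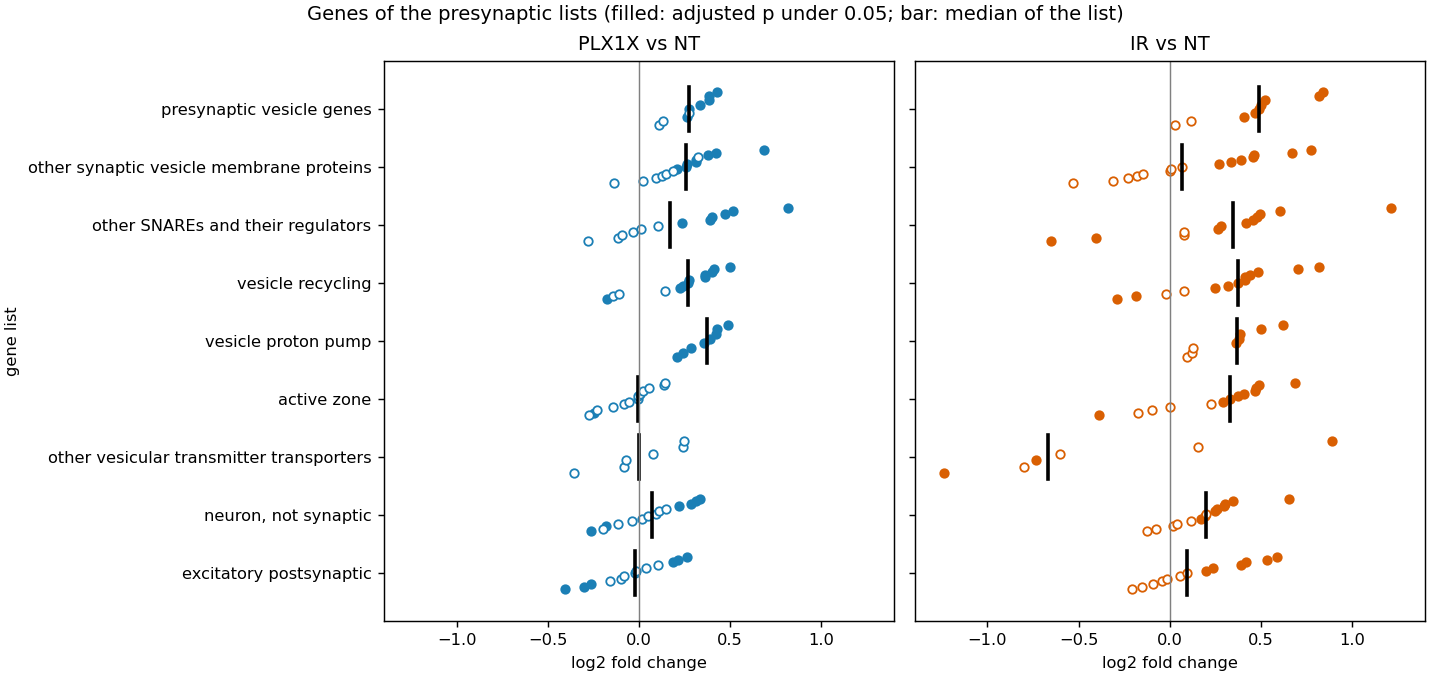
Log2 fold change from NT (horizontal axis) of each gene in 9 lists (vertical axis) in PLX1X and IR, with filled points for an adjusted p under the threshold and a bar at the list's median. The proton pump genes all lie right of 0 in PLX1X, while the active zone genes centre on 0 there and lie mostly to the right in IR.

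Across the 15 libraries the level pattern of the 9 genes was summarised by the median of their centred log2 values, which ran from -0.35 in NT replicate 3 to 0.20 in IR replicate 1. All NT libraries were below all treated libraries, and the 3 IR libraries were the highest. Syp lay closest to it, with a root mean square difference of 0.0372 log2 units over 15 libraries, then Syn1 (0.039) and Syn2 (0.0555), while Stx1a lay farthest (0.173). Among 10728 other genes the nearest were Lrp11 (0.0416), Ywhag (0.0442), the vesicle protein gene Svop (0.0481), the glycolysis gene Aldoa (0.0485) and Hid1 (0.0491). Of these 10728, 17.1% lay nearer to the pattern than Slc17a7, 18.7% than Snap25, 23% than Vamp2 and 32.6% than Stx1a. The 9 genes themselves make up this pattern, so their nearness to it is a description.

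**Figure D5:**
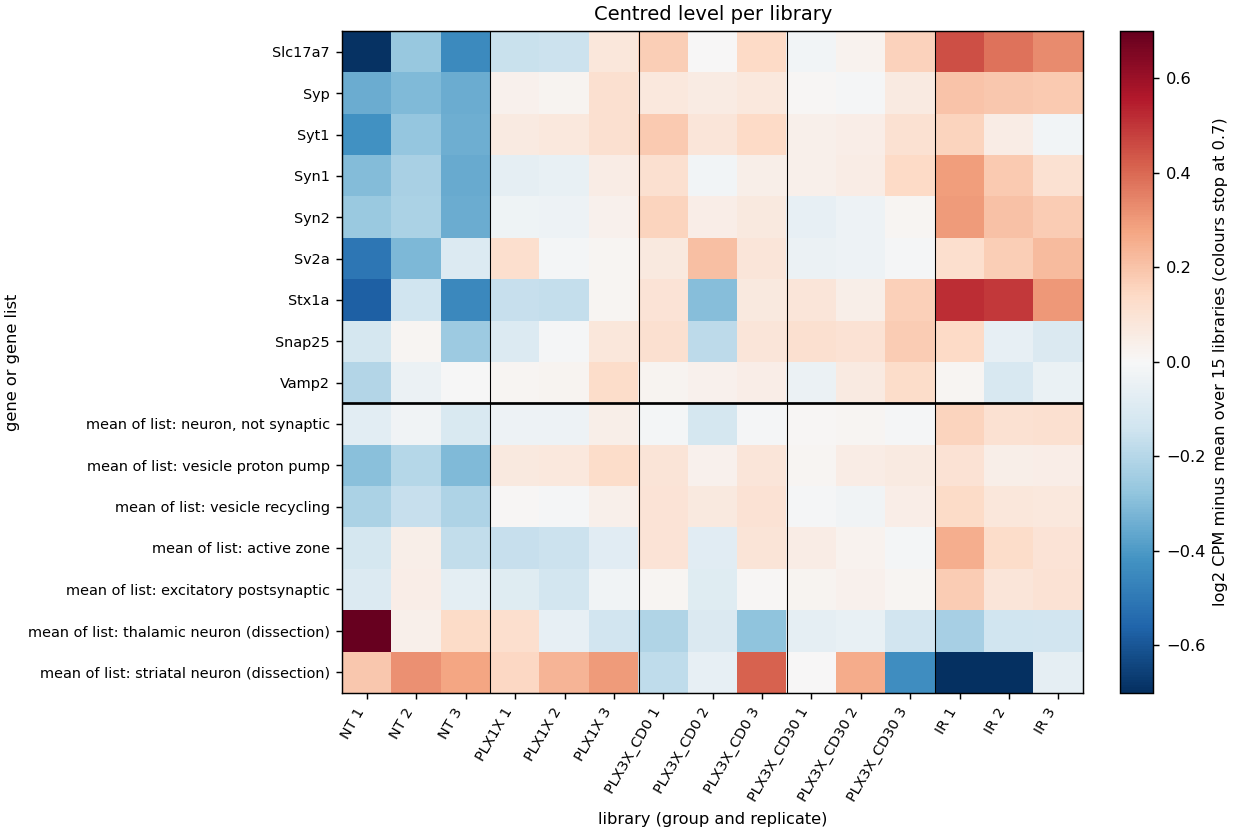
Centred log2 CPM (colour) of the 9 genes and the means of 7 lists (rows) in each library (columns, by group). The NT columns are blue for most vesicle genes, Slc17a7 and Stx1a are reddest in IR, and the thalamic list is red in NT replicate 1.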

How the data were processed

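Frozen forebrain RNA was amplified with a SMARTer kit, which does not mark strand, and sequenced as paired 150-base reads, per the labels' protocols. The genome build mm10 and the tools DRAGEN and DESeq2 are listed, without version or role, per the submitters' processing notes. The authors deposited raw counts per gene and the same counts as CPM, and the counts were tested. Of 55774 rows, 287 repeated an identifier and were dropped. Positions came from GENCODE M21.

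Counts were fitted in edgeR 4.0.16 (R 4.3.3; limma 3.58.1): TMM, filterByExpr by group, one mean per group over all 15 libraries, robust quasi-likelihood F-tests (biological coefficient of variation 12.1%). Standard errors were derived by dividing each log2 fold change by the square root of its F statistic. The procedure was tested on simulated data. Among counts of 1 to 4, 70.6% to 74.7% were even, so a count may be worth less than a fragment.

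The members and lists were chosen with earlier results of these data known. Named were the 9 genes, up to 2 genes per list and comparison with the smallest adjusted p, the 5 genes of nearest pattern (mean log2 CPM of at least 3) and 8 markers; a gene that the rule selects is not reported here. Alternatives were RLE factors, library totals, scaling to 14 neuronal genes, 2 other filters, DESeq2 1.42.0, only the libraries compared, the replicate block, each library left out and a loess offset (span 0.3) on transcript length and GC. The offset was tried in 5 forms. The first form uses all genes without centring. It moved the median log2 fold change of all genes in PLX1X from -0.04 to 0.07. Another 4 forms, centred or restricted by expression, were then tried, chosen after seeing the data.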

Additional observations from a re-analysis of the deposited data

How the results depend on the processing

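Over 927 recomputed fold changes of the 9 genes against NT, 856 kept their direction and side of the threshold, 33 passed only under the alternative, 29 no longer passed and 9 changed sign. The sign changes were all of Snap25 and Vamp2 in IR, which do not pass under TMM: Snap25 was -0.018 with library totals and -0.075 against neuronal genes, and Vamp2 was -0.101 and -0.162. Leaving out single libraries put Vamp2 between -0.035, without NT replicate 1, and 0.077, without NT replicate 3. With the length and GC offset Vamp2 was 0.001 in the first form and -0.073 (all genes, centred), -0.094 (mean log2 CPM from 1, not centred), -0.078 (from 1, centred) and -0.09 (from 3, centred) in the 4 forms chosen after seeing the data. The cause was not tested.

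Genes called in IR against PLX1X, PLX3X_CD0 and PLX3X_CD30 numbered 6197, 4687 and 3597, and with the offset 3441, 1876 and 1193 in the first form, then 3582, 2116 and 1285, 3760, 2348 and 1459, 3721, 2366 and 1479, and 3714, 2423 and 1439 in the others in that order. The first form called 286 genes between PLX3X_CD0 and PLX1X (536 under TMM) and 3 of the 9 genes between IR and PLX1X. The neuronal scaling called 1 of the 9 between PLX3X_CD30 and PLX3X_CD0 and 4 between IR and PLX3X_CD0. With no filter, genes called were 1186 (PLX3X_CD0 against PLX1X), 696 (PLX3X_CD30 against PLX1X, 263 with the filter) and 1395 (PLX3X_CD30 against PLX3X_CD0, 828 with it). DESeq2 called 1076 and 553 in the first and second of these pairs, and 4 of the 9 between IR and PLX3X_CD0. Against NT, fits to only the libraries compared called fewer genes. They called 2143 in PLX1X (3939 with all), 2601 in PLX3X_CD0 (4732), 359 in PLX3X_CD30 (1432) and 4721 in IR (6658). Of the presynaptic lists they called 14 genes in PLX3X_CD30 (27). Between treated groups they called more: in IR 7147 against PLX1X (6197), 4945 against PLX3X_CD0 (4687) and 4860 against PLX3X_CD30 (3597). The PLX pairs had 759 for PLX3X_CD0 against PLX1X (536), 814 for PLX3X_CD30 against PLX1X (263) and 1179 for PLX3X_CD30 against PLX3X_CD0 (828). Of the 9 they called 1 between PLX3X_CD30 and PLX1X, and 5 between IR and PLX3X_CD30. The cause of these differences was not tested.

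Leaving out single libraries gave 150 to 289 genes between PLX3X_CD0 and PLX1X, 125 to 188 between PLX3X_CD30 and PLX1X, 384 to 563 between PLX3X_CD30 and PLX3X_CD0, 608 to 1714 between PLX3X_CD30 and NT, 3029 to 4441 between IR and PLX3X_CD0 and 1975 to 3526 between IR and PLX3X_CD30. Of the 9, it gave 4 to 7 in PLX3X_CD30 against NT, and in IR 3 to 5 against PLX1X, 1 to 2 against PLX3X_CD0 and 1 to 4 against PLX3X_CD30.

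Of all genes called in IR against NT, 49.5% were higher under TMM, 25.8% with library totals, 15.9% with the neuronal scaling and 71.3% with the first offset. In PLX1X these shares were 55.1%, 31.8%, 37.1% and 76.9%. Library totals moved the median of all genes by -0.133 in IR, and the first offset moved it by 0.115 in PLX1X.

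With replicate number as a block, 6, 6, 7 and 7 of the 9 were called in PLX1X, PLX3X_CD0, PLX3X_CD30 and IR, and 3833, 4575, 1241 and 6517 genes; among the 9 only Stx1a in PLX3X_CD0 lost its call (0.338, adjusted p = 0.0797, edgeR). Of 30 same-number pairs 4 correlated above 0.1 (range -0.09 to 0.226), and 7 of 15 libraries correlated best with their own number. The labels state no pairing. These correlations run over all genes and could miss a shared step that affects few, so they do not settle whether the numbers pair libraries.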
